A study of Homo sapiens with 10 samples.

Results

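The genes examined here are 36 genes of the human machinery of microRNA (miRNA) processing, silencing and decay, chosen by symbol from a fixed list, out of 64940 genes in a deposited table of TPM, a unit of transcript abundance that is corrected for gene length and library size. All 36 were found and all 36 passed the filter of a mean TPM of at least 1. The cells were derived from H9, an established human embryonic stem cell line. The 2 control libraries carry the genotype wt and are labelled as spontaneously differentiated cells, whereas the 2 oeDAZL libraries are labelled as human primordial germ cell-like cells (hPGCLCs) that overexpress DAZL, an RNA-binding protein of germ cells. The study's methods describe differentiation with the bone morphogenetic proteins BMP4 and BMP8a for both arms, with lentivirus carrying DAZL together with green fluorescent protein, or green fluorescent protein alone, followed by sorting. The labels do not name these agents for the control libraries, so DAZL and any difference in culture between the groups cannot be told apart. Nothing in the labels says that replicates came from separate cultures. Each p-value sets the difference between the groups against the spread between replicate libraries, which may be technical. That spread is estimated in part from all tested genes.

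A miRNA gene is transcribed as a long primary transcript, from which the nuclear Microprocessor (DROSHA with DGCR8) crops a hairpin precursor. Exportin-5 (XPO5) carries the precursor to the cytoplasm, DICER1 cuts off its loop, and an Argonaute protein keeps the guide strand. The loaded Argonaute recruits TNRC6 proteins, which call in deadenylases, and the target mRNA is then decapped and degraded. The study asked whether DAZL acts on the dicing step, so the mRNA levels of each step are the background on which such an effect would take place. TPM measures mRNA and says nothing of protein amount or enzyme activity.

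The let-7 family is the miRNA family on which the study centred, and its mature sequences are shown because their seed defines the target letters searched in the members. The 8 let-7 5p miRNAs in RefSeq (GRCh38.p14) share bases 2 to 8, GAGGUAG, which are in capitals in these 4 examples, and differ only outside them.
hsa-let-7a-5p: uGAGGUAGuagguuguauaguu
hsa-let-7d-5p: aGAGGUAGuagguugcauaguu
hsa-let-7e-5p: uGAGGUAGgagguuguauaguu
hsa-let-7i-5p: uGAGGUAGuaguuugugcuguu
The matching target letters are CTACCTC, and with an A after them CTACCTCA, on the sense strand of the mRNA.

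The 2 control libraries listed DAZL at 0 and 0.0333 TPM, against 102 and 101 TPM under oeDAZL, so the labels hold for the overexpressed gene. Germ cell markers were low in all 4 libraries: the 8 markers summed to 58.1 to 71.2 TPM, DDX4 and DND1 had a mean below 1 TPM, and SOX17 was at 2.52 to 3.35 TPM. The most abundant of the 8 was TFAP2C, at 44.3 to 53.9 TPM. Mesenchyme markers moved with the groups, and their summed level was 2680 and 2540 TPM in control against 1810 and 1850 TPM in oeDAZL, with 5 of 6 markers lower at an unadjusted p of at most 0.05. Of the 6 amnion and trophoblast markers, 2 (CGA and VTCN1) were lower and 1 (HAND1) was higher at that p. The list summed to 2100 and 2180 TPM in control and 2380 and 2370 TPM in oeDAZL, far above the germ cell markers in each library. Of the 5 pluripotency markers tested, POU5F1 (13.6 and 10.6 TPM in control, 22.4 and 20.4 TPM in oeDAZL) and TDGF1 (5.05 and 8.26 TPM in control, 14.1 and 10.6 TPM in oeDAZL) were higher at that p and none was lower, while NANOG had a mean below 1 TPM. Another of them, LIN28A, which blocks the maturation of let-7 precursors, was at 476 and 428 TPM in control and 417 and 401 TPM in oeDAZL, with an adjusted p of 0.292. Of the 5 endoderm markers, SOX7 and AFP were lower at that p and none was higher, and the list summed to 281 and 167 TPM in control and 164 and 205 TPM in oeDAZL. Of the 3 neural markers tested, NES was higher and PAX6 lower, and the 5 neural markers summed to 437 and 577 TPM in control and 689 and 635 TPM in oeDAZL. The share of TPM from mitochondrial genes was 12.6% to 14.1% over the 4 libraries. In bulk RNA, fewer cells of a type and less RNA per cell cannot be told apart, and the part of these markers in the values below was not tested.

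The machinery as a whole differed little between the groups. The members' log2 fold changes (oeDAZL over control, on log2(TPM + 1)) ran from -0.42 for MOV10 to 0.19 for DDX5, with a median of -0.077, beside a median of -0.078 over all 16687 tested genes. The median size of the difference, sign left aside, was 0.11 for the members and 0.15 for all tested genes. These sets were not matched for level, and replicates also differed less for the members, as given below. No member reached a fold change of 2 with p of at most 0.05, the thresholds of the study's methods, which 0.689% of all tested genes passed. No member had an adjusted p under 0.05 in limma, which 0.0599% of all tested genes had, and the lowest adjusted p of a member was 0.115. The 95% intervals of 34 members lay within a 1.5-fold difference in either direction and those of all 36 within a 2-fold difference. The members outside the narrower bound were MOV10 and PARN. For 6 members (EDC4, PAN2, CNOT7, TARBP2, CNOT1 and TNRC6C), another annotated gene covers 12.3% to 21.3% of the exonic bases, and reads from such stretches cannot be assigned with certainty.

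At an unadjusted p of at most 0.05, 4 members were lower in oeDAZL (MOV10, DDX17, SRRT and ADAR), which is 4 of 36 beside 15.2% of all tested genes. Another 2 members were higher at that p (DDX5 and CNOT7), beside 5.02% of all tested genes. With each library left out in turn, MOV10 stayed at that p each time and DDX5 did so without either control library but not without either oeDAZL library. DDX17, SRRT and ADAR stayed there only without control replicate 2, and CNOT7 under none of the 4. Both oeDAZL libraries lay below both control libraries for 18 members, whereas 38.4% of all tested genes did so. They lay above both for 7 members, beside 16.0% of all tested genes, and the groups overlapped for the other 11. In all, 26 members were lower and 10 were higher, which is 72.2% lower beside 65.3% of all tested genes. These shares depend on the scaling between libraries. After median-of-ratios scaling, which brought the median of all tested genes to -0.003, 18 members were lower and 18 were higher, and the members' median was 0.005.

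**Figure D1:**
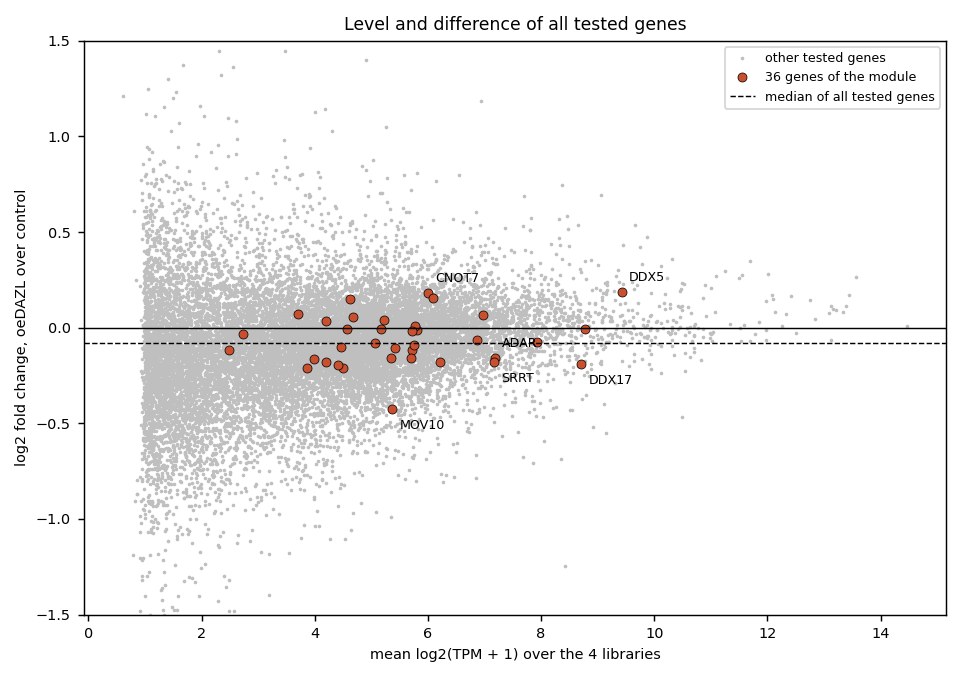
Each point is a gene, with its mean log2(TPM + 1) over the 4 libraries on the horizontal axis and its log2 fold change, oeDAZL over control, on the vertical axis. The 36 genes of the module are in orange, with names for the 6 at an unadjusted p of at most 0.05, and lie between -0.42 and 0.19, inside the cloud of all tested genes; the dashed line is the median of all tested genes, -0.078, and 27 genes lie beyond the vertical axis.

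The spread between replicates was small for these genes. The median absolute difference between replicates of a member was 0.072 in control and 0.043 in oeDAZL on the log2 scale, beside 0.14 and 0.10 over all tested genes. The median size of the difference between the groups was 0.11 for the members and 0.15 for all tested genes. In proportion to the replicate differences, it was thus larger for the members than for all tested genes. The difference between the groups depends on the scaling between libraries. Control replicate 1 was above control replicate 2 for 28 of 36 members, and for 58.3% of all tested genes.

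**Figure D2:**
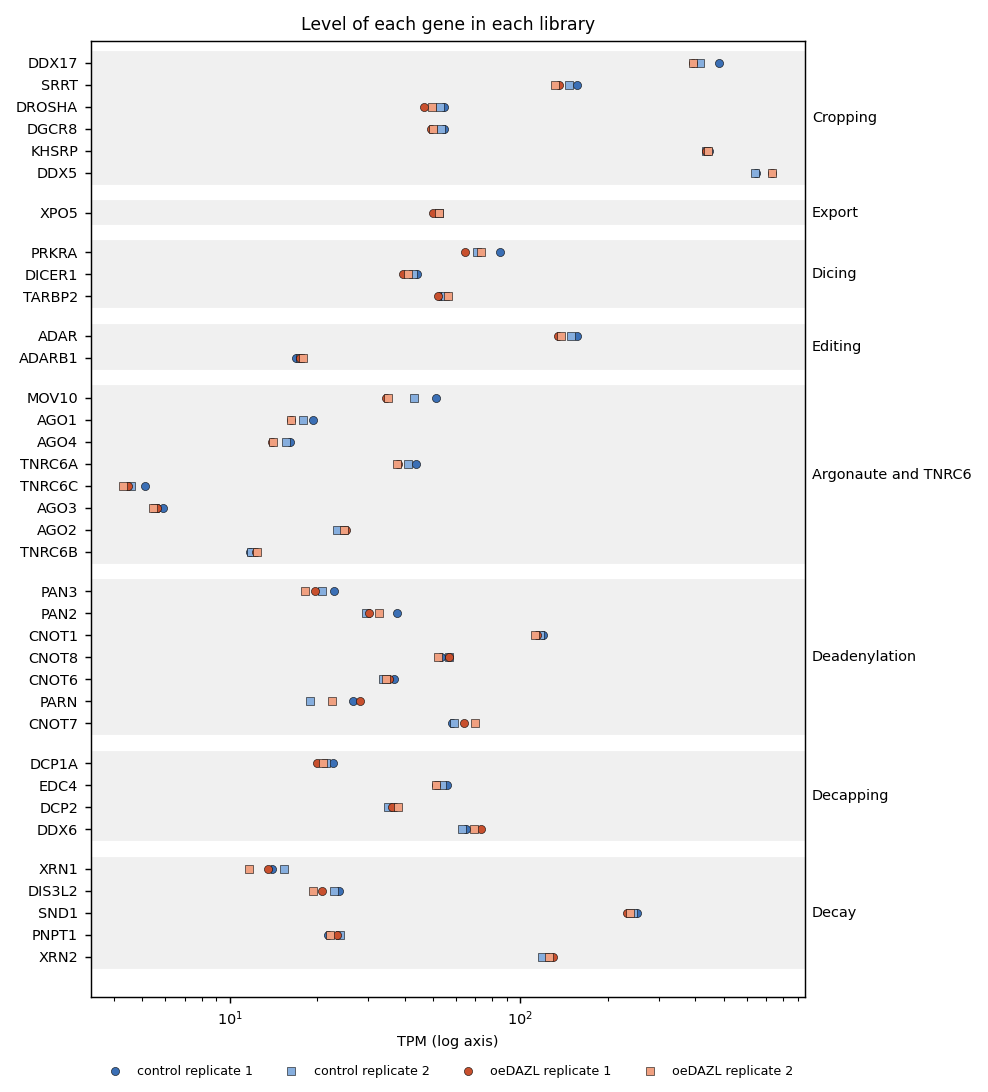
TPM of each of the 36 genes in each of the 4 libraries, on a log axis, with the genes grouped by step. The libraries of a gene sit close together compared with the distance between genes, which run from 4.30 TPM for TNRC6C in oeDAZL replicate 2 to 735 TPM for DDX5 in the same library.

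The cropping genes included the 3 most abundant members, DDX5, KHSRP and DDX17. DDX5, a DEAD-box RNA helicase of the Microprocessor, was at 647 and 640 TPM in control and 731 and 735 TPM in oeDAZL. Both oeDAZL libraries were above both control libraries, with a log2 fold change of 0.19 (95% interval 0.071 to 0.30) and an adjusted p of 0.131. DDX17, its close paralog in the same complex, was at 481 and 416 TPM in control against 391 and 392 TPM in oeDAZL. Here both oeDAZL libraries were below both control libraries, and the log2 fold change was -0.19 (95% interval -0.38 to -0.006) with an adjusted p of 0.238. That value rests largely on control replicate 1, since it was -0.087 without that library and -0.30 without control replicate 2, where the adjusted p was 0.043.

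SRRT (ARS2), which links capped nascent transcripts to the Microprocessor, was at 156 and 147 TPM in control and 136 and 131 TPM in oeDAZL. Its groups did not overlap, and its log2 fold change was -0.18 (95% interval -0.32 to -0.037) with an adjusted p of 0.184. DROSHA, the nuclease that crops the primary transcript, was at 54.5 and 53.0 TPM in control and 46.4 and 49.6 TPM in oeDAZL. DGCR8, its RNA-binding partner, was at 54.7 and 53.1 TPM in control and 49.2 and 50.0 TPM in oeDAZL. Both were lower in each oeDAZL library, with 95% intervals that include 0: the log2 fold changes were -0.16 (95% interval -0.33 to 0.009) for DROSHA and -0.12 (95% interval -0.27 to 0.038) for DGCR8. KHSRP, which binds the loops of some precursors including those of let-7, was at 444 and 434 TPM in control and 434 and 442 TPM in oeDAZL, and its groups overlapped. The median of the 6 cropping genes was -0.14. Median-of-ratios scaling shifted the step like all the others, leaving MOV10 as the only member lower at an unadjusted p of at most 0.05.

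DGCR8 mRNA is itself known to be cut by the Microprocessor at hairpins that it carries, which is why a miRNA annotated in an exon of the gene is shown, with its seed in capitals. A second miRNA gene, MIR1306, also shares exonic bases with DGCR8. The miRNA shown is hsa-miR-3618, on the plus strand of GRCh38.p14 at chr22:20085797-20085818, within the DGCR8 gene at chr22:20080221-20111877.
hsa-miR-3618: uGUCUACAuuaaugaaaagagc
DDX5 likewise shares exonic bases with MIR3064 and MIR5047, and 0.4% of the exonic bases of KHSRP are shared with MIR3940, which lies partly in an exon. DICER1, DIS3L2 and SND1 contain miRNA genes that do not lie wholly within their exons. Mature miRNAs were sequenced in other libraries of the series and are not analysed here.

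Export was represented by XPO5, at 51.5 and 52.4 TPM in control and 50.2 and 52.5 TPM in oeDAZL. The groups overlapped, and the log2 fold change was -0.018 (95% interval -0.18 to 0.14).

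Dicing is the step on which the study centred, and the 95% intervals of its 3 genes all include 0. DICER1 was at 44.0 and 42.7 TPM in control and 39.4 and 40.9 TPM in oeDAZL, so both oeDAZL libraries were below both control libraries. Its log2 fold change was -0.11 (95% interval -0.28 to 0.059) with an adjusted p of 0.42, and without any single library it stayed between -0.13 and -0.082. After median-of-ratios scaling it was -0.027. On the main scaling the interval leaves out a DICER1 mRNA level in oeDAZL more than 1.04 times that in control. TARBP2, the double-stranded RNA-binding partner of DICER1, was at 52.7 and 54.9 TPM in control and 51.9 and 56.2 TPM in oeDAZL, with overlapping groups. PRKRA (PACT), its related partner, was at 85.2 and 71.0 TPM in control against 64.5 and 73.0 TPM in oeDAZL, and these groups overlapped too. Their log2 fold changes were 0.007 (95% interval -0.17 to 0.18) for TARBP2 and -0.18 (95% interval -0.44 to 0.080) for PRKRA.

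DICER1 carries the let-7 letters CTACCTCA at 3 places in its coding sequence and at none in its longest 3′UTR. The sites lie on the minus strand of hg38 at chr14:95103748-95103755, chr14:95103640-95103647 and chr14:95094106-95094113, at bases 3641, 3749 and 5139 of a coding sequence of 5766 bases in GENCODE 44. They are printed in that order with 11 bases on either side and the site in capitals.
DICER1 site 1: cgtgcaaccaaCTACCTCAtattccattca
DICER1 site 2: tgctaacaaatCTACCTCAgatggaagtcc
DICER1 site 3: gcgattttggaCTACCTCAtaaccaagcac
The search of coding sequences was added after the values were seen. It found the 8 letters in 4 members (DICER1, XRN1, DDX6 and MOV10), or 11.1%, beside 5.0% of the 13047 tested genes with an annotated 3′UTR. These shares are not matched for length, and a longer sequence has more places for a match. The coding sequence has 5766 bases in DICER1, 5118 in XRN1, 3009 in MOV10 and 1449 in DDX6.

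**Figure D3:**
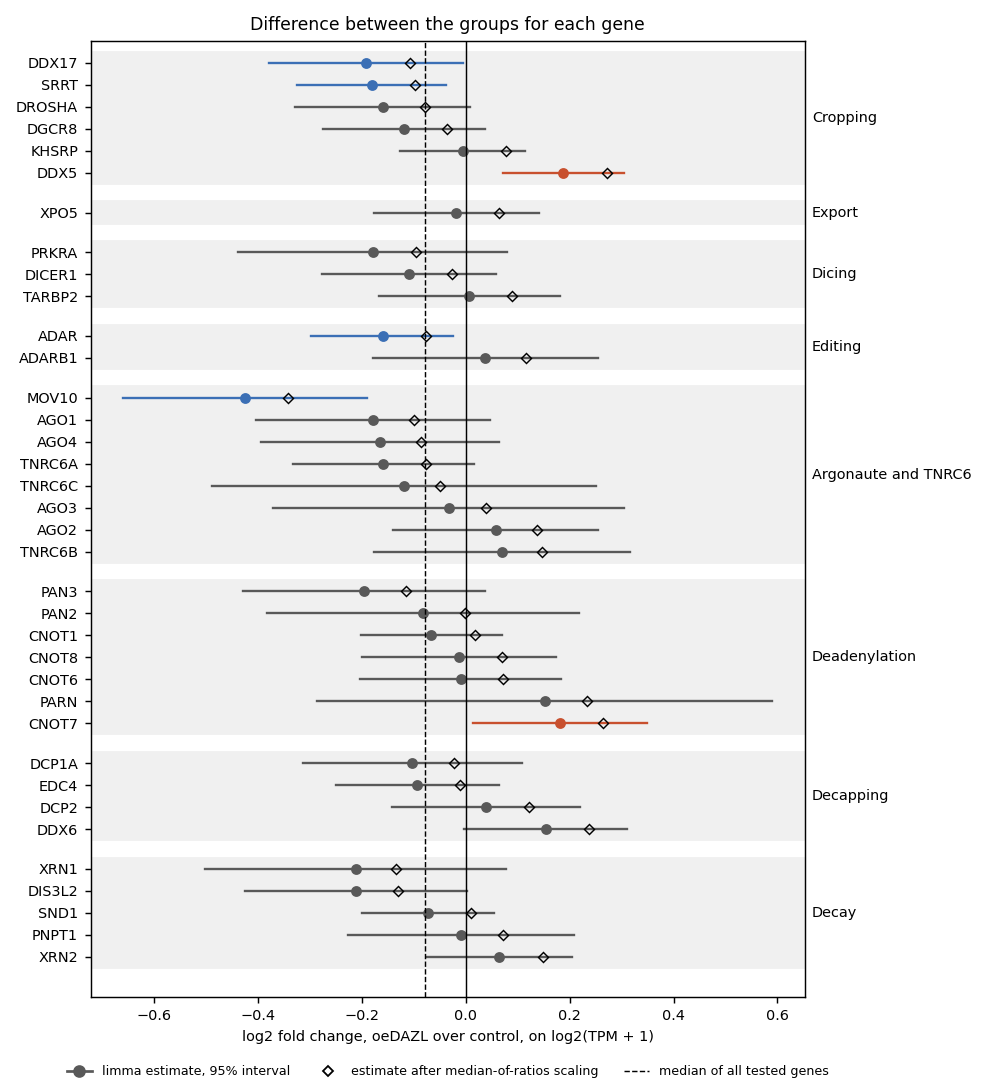
Log2 fold change of each gene, oeDAZL over control, with its 95% interval from limma as a bar; blue marks intervals below 0 and orange intervals above 0. Open diamonds are the estimates after median-of-ratios scaling, which sit to the right of the main estimates for each gene shown, and the dashed line is the median of all tested genes, -0.078.

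The editing enzymes convert adenosine to inosine in double-stranded RNA, some miRNA precursors included. ADAR, which is expressed in most cells, was at 157 and 149 TPM in control and 135 and 138 TPM in oeDAZL. Its oeDAZL libraries were both below its control libraries, with a log2 fold change of -0.16 (95% interval -0.30 to -0.024) and an adjusted p of 0.201. ADARB1, the second active deaminase, was at 16.9 and 17.5 TPM in control and 17.5 and 17.8 TPM in oeDAZL. The log2 fold change of ADARB1 was 0.037 (95% interval -0.18 to 0.25).

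The Argonaute and TNRC6 genes form the silencing complex. MOV10, an RNA helicase that associates with Argonaute, showed the largest difference of the 36 genes. It was at 51.3 and 43.1 TPM in control and 34.6 and 34.9 TPM in oeDAZL, a mean of 47.2 ± 5.78 TPM against 34.8 ± 0.227 TPM (SD, n = 2 libraries each). Both control libraries were above both oeDAZL libraries, and they differed from each other by more than the oeDAZL pair did. The log2 fold change was -0.42 (95% interval -0.66 to -0.19), a difference of the means of -26.3%, with an adjusted p of 0.115. It ranged from -0.55 to -0.30 when each library was left out in turn, and its adjusted p was 0.0414 without control replicate 2. MOV10 was the only member lower at an unadjusted p of at most 0.05 under each of the alternatives run. It lies on chromosome 1 (hg38 chr1:112673141-112700756, plus strand), and its coding sequence of 3009 bases holds the let-7 letters at chr1:112700332-112700339, near the stop codon.
MOV10 site: gctcagcccctCTACCTCAgggccccacag

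AGO1 and AGO4, whose genes lie side by side with AGO3 on chromosome 1, were both lower in each oeDAZL library. AGO1 was at 19.3 and 17.9 TPM in control and 16.3 in both oeDAZL libraries, and AGO4 at 16.1 and 15.6 TPM in control and 14.0 and 14.1 TPM in oeDAZL. Their log2 fold changes were -0.18 (95% interval -0.40 to 0.046) and -0.16 (95% interval -0.39 to 0.064), so neither passed. AGO2, the Argonaute that can slice its target, was at 24.6 and 23.3 TPM in control and 25.2 and 24.7 TPM in oeDAZL, with a log2 fold change of 0.058 (95% interval -0.14 to 0.25). AGO3 was the least abundant Argonaute, at 5.88 and 5.51 TPM in control and 5.64 and 5.45 TPM in oeDAZL, with overlapping groups.

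TNRC6 proteins bind Argonaute and bring in the deadenylases. TNRC6A was at 43.6 and 40.9 TPM in control and 37.8 and 37.6 TPM in oeDAZL, lower in both oeDAZL libraries, with a log2 fold change of -0.16 (95% interval -0.33 to 0.016). TNRC6B was at 11.7 and 11.8 TPM in control and 12.3 and 12.4 TPM in oeDAZL, higher in both, with a log2 fold change of 0.070 (95% interval -0.18 to 0.32). TNRC6C was at 5.12 and 4.56 TPM in control and 4.45 and 4.30 TPM in oeDAZL. The median of the 8 genes of this step was -0.14.

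Paralogs were also compared by their share of their family's summed TPM, which does not depend on the scaling between libraries. With 2 libraries against 2, the exact two-sided permutation test cannot give a p below 0.33, so the shares are given as values. DDX5 made up 57.4% and 60.6% of DDX5 plus DDX17 in control and 65.2% in both oeDAZL libraries, a difference of 6.21 percentage points that was 4.58 without control replicate 1 and 7.83 without control replicate 2. The sum of the pair was 1130 and 1060 TPM in control and 1120 and 1130 TPM in oeDAZL, so the summed level of the pair overlapped while its make-up did not. AGO2 made up 37.4% of the 4 Argonautes in both control libraries and 41.2% and 40.8% in oeDAZL, a difference of 3.67 points that stayed between 3.48 and 3.85 without any single library. The shares of AGO1 and AGO4 were lower by 2.22 and 1.67 points. The Argonautes summed to 65.8 and 62.3 TPM in control and 61.1 and 60.6 TPM in oeDAZL.

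TNRC6B took 19.3% and 20.6% of the TNRC6 sum in control and 22.5% and 22.8% in oeDAZL. ADARB1 took 9.76% and 10.5% of the sum with ADAR in control and 11.5% in both oeDAZL libraries. XRN2 took 89.9% and 88.5% of XRN1 plus XRN2 in control and 90.5% and 91.5% in oeDAZL. For these 3 genes the shares of the groups did not overlap. How often the shares of other gene families separate like this was not tested. In TPM, both oeDAZL libraries lay below both control libraries for 38.4% of all tested genes and above both for 16.0%. The TPM of single genes is another measure than a share, so these values do not show whether the families stand apart from other genes. No conclusion is drawn from the non-overlap of the shares. CNOT7 took 52.3% and 51.1% of CNOT7 plus CNOT8 in control and 52.9% and 57.3% in oeDAZL, so its oeDAZL libraries lay further apart than the nearest libraries of the groups. CNOT6 and CNOT6L overlapped in their shares, and there the replicates of each group differed by more than the groups did.

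**Figure D4:**
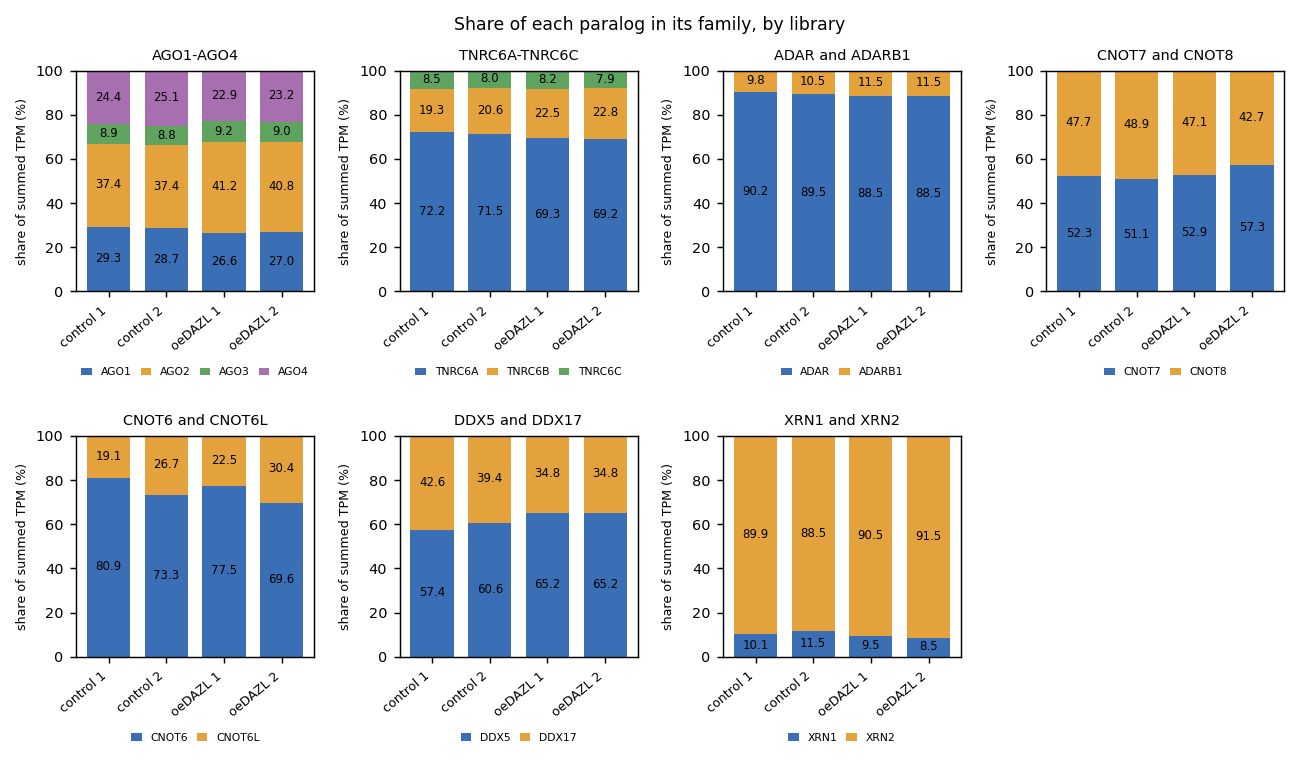
Stacked bars give the share, in percent, of each paralog in the summed TPM of its family for each of the 4 libraries, with 1 panel per family. DDX5 is at 57.4% and 60.6% in control and 65.2% in both oeDAZL libraries, AGO2 is at 37.4% in each control library and 41.2% and 40.8% in oeDAZL, and CNOT6 overlaps between the groups.

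Deadenylation shortens the poly(A) tail of a silenced mRNA. CNOT7, a catalytic subunit of the CCR4-NOT complex, was at 58.3 and 59.3 TPM in control and 64.2 and 69.6 TPM in oeDAZL. The groups did not overlap, and the log2 fold change was 0.18 (95% interval 0.015 to 0.35) with an adjusted p of 0.22. An annotated transcript on the other strand covers 18.8% of its exonic bases, and whether the counting used strand is not given in the sources used here. CNOT8, its interchangeable paralog in the complex, was at 53.1 and 56.8 TPM in control and 57.0 and 52.0 TPM in oeDAZL, and CNOT6, the other kind of catalytic subunit, was at 36.8 and 33.6 TPM in control and 35.4 and 34.4 TPM in oeDAZL. Both overlapped between the groups. CNOT1, the scaffold, was at 120 and 117 TPM in control and 114 and 112 TPM in oeDAZL, with a log2 fold change of -0.066 (95% interval -0.20 to 0.069).

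PAN2 and PAN3 form the other cytoplasmic deadenylase. PAN3, the subunit that binds TNRC6, was at 22.9 and 20.8 TPM in control and 19.7 and 18.2 TPM in oeDAZL, lower in both oeDAZL libraries, with a log2 fold change of -0.20 (95% interval -0.43 to 0.038). PAN2, the nuclease, was at 37.5 and 29.5 TPM in control and 30.1 and 32.7 TPM in oeDAZL. PARN, a poly(A)-specific ribonuclease that also trims small RNAs, was the most variable member, at 26.6 and 18.9 TPM in control and 28.1 and 22.4 TPM in oeDAZL. The replicates of PARN differed by more than its groups in each case, its log2 fold change was 0.15 (95% interval -0.29 to 0.59), and it was -0.083 without control replicate 2. The median of the 7 deadenylation genes was -0.013.

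Of the 4 decapping genes, 2 were higher and 2 were lower. DDX6, the helicase that joins CCR4-NOT to the decapping enzyme, was at 65.0 and 62.8 TPM in control and 73.2 and 69.2 TPM in oeDAZL. Its groups did not overlap, and its log2 fold change was 0.15 (95% interval -0.003 to 0.31), just short of an unadjusted p of 0.05 with a p of 0.0532 in limma and an adjusted p of 0.255. DCP2, which removes the cap, was at 36.9 and 35.1 TPM in control and 36.1 and 38.0 TPM in oeDAZL. Its activator DCP1A was at 22.6 and 21.4 TPM in control and 19.9 and 20.9 TPM in oeDAZL, and the scaffold EDC4 at 56.0 and 53.7 TPM in control and 51.4 and 51.3 TPM in oeDAZL. DCP1A and EDC4 were lower in both oeDAZL libraries without passing the test. The median of the 4 genes was -0.027.

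Of the 5 nucleases and binding proteins of decay, 4 were lower, beside 65.3% of all tested genes, and none was at an unadjusted p of at most 0.05. SND1 and PNPT1, lower here, changed sign after median-of-ratios scaling. DIS3L2, which degrades uridylated RNA and among it pre-let-7, was at 23.8 and 22.8 TPM in control and 20.7 and 19.3 TPM in oeDAZL. Both oeDAZL libraries were below both control libraries, with a log2 fold change of -0.21 (95% interval -0.42 to 0.003) and an adjusted p of 0.253. XRN1, the cytoplasmic exonuclease for decapped mRNA, was at 14.0 and 15.4 TPM in control and 13.5 and 11.6 TPM in oeDAZL, with a log2 fold change of -0.21 (95% interval -0.50 to 0.077). XRN2, its nuclear counterpart, was at 124 and 119 TPM in control and 129 and 125 TPM in oeDAZL, and was the only decay gene that was higher in both oeDAZL libraries. SND1, a nuclease that associates with the silencing complex, was at 252 and 243 TPM in control and 232 and 238 TPM in oeDAZL. PNPT1, a mainly mitochondrial exonuclease, overlapped between the groups, at 21.8 and 23.9 TPM in control and 23.3 and 22.2 TPM in oeDAZL.

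The let-7 letters were also searched in the longest annotated 3′UTR of each member. The 8 letters CTACCTCA were found in 3 members (AGO2, AGO3 and KHSRP), or 8.3%, beside 4.7% of the 13047 tested genes with a 3′UTR. Allowing the 7 letters CTACCTC added AGO1 and TARBP2, for 5 members or 13.9%, beside 12.2%. These shares are not matched for length either. The longest 3′UTR has 16755 bases in AGO3, 11888 in AGO2, 10925 in AGO1, 1922 in KHSRP and 450 in TARBP2. The KHSRP site is at hg38 chr19:6414487-6414494 on the minus strand, and the AGO3 site at chr1:36069088-36069095 on the plus strand.
KHSRP site: caccttccaacCTACCTCAcaggggtgttg
AGO3 site: cctgtcctcacCTACCTCActaaattgttg
The median log2 fold change was -0.006 for the 3 members with the 8 letters and -0.093 for the other members. Over the 13047 tested genes with a 3′UTR it was -0.075 with the letters and -0.066 without. The 4 members with the letters in the coding sequence had a median of -0.16 and the other members one of -0.069. Over the same 13047 genes it was -0.11 with the letters in the coding sequence and -0.064 without. A match of letters is a description of the sequence and not a measured site.

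The rest of the pathway held no call either. Of 81 other genes of the same pathway, taken from a fixed list, all were tested, 41 were higher and 40 were lower, with a median of 0.002. At an unadjusted p of at most 0.05, 6 were lower and 4 were higher, beside 15.2% and 5.02% of all tested genes. None had an adjusted p under 0.05 in limma, beside 0.0599% of all tested genes. None reached a fold change of 2 with an unadjusted p of at most 0.05, beside 0.689% of all tested genes. At such shares, the absence of a call among 81 genes does not set them apart. By group, the genes that were lower numbered 6 of 12 in cropping and nuclear partners, 1 of 3 in export, 5 of 6 in precursor control, 6 of 15 in loading and partners of the silencing complex, 5 of 15 in deadenylation, 7 of 15 in decapping and 10 of 15 in the exosome, beside 65.3% of all tested genes. The 3 genes with the largest differences were LSM2, NCBP3 and HSP90AA1. HSP90AA1, a chaperone used in loading Argonaute, was at 738 and 750 TPM in control and 1010 and 989 TPM in oeDAZL, with a log2 fold change of 0.42 (95% interval 0.30 to 0.54) and an adjusted p of 0.0836. NCBP3, a cap-binding protein of the nucleus, was at 58.1 and 48.2 TPM in control and 39.6 and 36.9 TPM in oeDAZL, with a log2 fold change of -0.46 (95% interval -0.71 to -0.21) and an adjusted p of 0.114. LSM2, part of the ring that binds deadenylated mRNA, was at 14.9 and 6.67 TPM in control and 16.6 and 15.7 TPM in oeDAZL, a difference set by control replicate 2. Its symbol has 6 entries in the table, of which only 1 was used, and the values of the others are not given here.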

How the data were processed

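RNA sequencing of 2 control and 2 oeDAZL libraries was analysed; the miRNA sequencing was not analysed here. According to the methods and the submitters' processing notes, the authors trimmed reads with Trim Galore, mapped them to hg38 with HISAT2 2.1.0, kept unique reads and quantified them with StringTie 2.1.4, and deposited TPM per gene. The annotation release is not given in the sources used here. Reads shared by close paralogs were dropped by the unique mapping, which can lower such genes. TPM keeps no depth, so depth per library is unknown and no counting interval was computed.

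From the 65003 entries, 45 pseudoautosomal copies on Y and 18 repeated entries were left out; a second PARN entry, listed at 0, was not used. Genes were kept at a mean TPM of 1 or more (16687 genes), and their log2(TPM + 1) entered limma 3.58.1 (R 4.3.3; lmFit, eBayes with trend, no covariates), with Benjamini-Hochberg adjustment over all tested genes. Intervals are limma's 95% intervals. The procedure was tested on simulated data, in which 200 genes were changed by 2 on the log2 scale. No member differed by that much, so the simulation does not show how well changes of the members' size would be found. Sequences came from RefSeq (GRCh38.p14) and GENCODE 44 on hg38, where all 36 members were matched. Alternatives were another pseudocount, 2 filters, 3 scalings, no trend, a replicate block and each library left out. Every member could be named; of the other pathway genes, those that passed and the 3 with the largest difference. The members and lists were chosen with earlier results of these data known.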

Additional observations from a re-analysis of the deposited data

How the results depend on the processing

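Of 431 member results under 12 alternatives, 397 kept their direction, and 24 of 36 members kept it throughout. The 2 filters, the fit without the trend and the replicate block leave each log2 fold change as it is. Their results could not change direction but are counted among those that kept it. No member was called at a fold change of 2 under any alternative. The members lower at an unadjusted p of at most 0.05 numbered 4, against 1 after median-of-ratios scaling, 1 without the trend and 1 to 7 with a library left out. Those higher numbered 2, against 4, 0 and 0 to 2. Without a filter they numbered 6 and 3. Under the replicate block they numbered 2 and 1; the replicate differences of the groups correlated at -0.104 across genes, so the numbers were not taken as pairs. Crossing the numbers, added after seeing the data, gave 1 member with an adjusted p under 0.05, beside 1089 of all tested genes; leaving out a library gave 0 to 2, the 2 (MOV10 and DDX17) without control replicate 2, when 673 of all tested genes passed. There the lone library was assumed to vary like the other group. The members' median moved from -0.077 to 0.005 after median-of-ratios scaling and to -0.015 after quantile normalization. The cause of these shifts was not tested. In all, 12 members changed sign under at least 1 alternative. After median-of-ratios scaling the log2 fold changes were 0.078 for KHSRP, 0.072 for CNOT6, 0.064 for XPO5, 0.017 for CNOT1, 0.039 for AGO3, 0.071 for PNPT1, 0.070 for CNOT8 and 0.011 for SND1. After quantile normalization they were 0.033 for TNRC6C, 0.026 for KHSRP, 0.066 for CNOT6, 0.031 for XPO5, 0.10 for AGO3, 0.077 for PNPT1 and 0.037 for CNOT8, and without mitochondrial genes 0.011 for KHSRP, 0.007 for CNOT6, 0.008 for PNPT1 and 0.004 for CNOT8. With a library left out, the ranges that crossed 0 were -0.022 to 0.010 for KHSRP, -0.075 to 0.056 for CNOT6, -0.072 to 0.006 for AGO3, -0.25 to 0.085 for PAN2, -0.050 to 0.064 for TARBP2, -0.072 to 0.054 for PNPT1, -0.083 to 0.39 for PARN, -0.078 to 0.052 for CNOT8 and -0.049 to 0.013 for XPO5. A let-7 site of 7 or 8 letters in place of 8 gave 5 members in place of 3. The unknown depth and 2 libraries a group limit the precision.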
